A study of Danio rerio with 6 samples.

Results

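The circadian clock gene per3 split pools of whole zebrafish larvae into 3 with a high level and 3 with a low level, and all genes were compared between these 2 classes. Each pool held 50 whole larvae at 7 days post fertilization (dpf), raised at 28.5 °C, and gave 1 library of polyadenylated RNA. Larvae were homozygous for the znf469-4del allele (znf469-KO, 3 pools, called mutant here) or wild type (3 pools). The high class held the 3 pools with a normalized per3 value of 300 or more, which were mutant replicates 1 and 3 and wild type replicate 1. The low class held the 3 pools with a value under 100, which were mutant replicate 2 and wild type replicates 2 and 3, so that all 6 of the 6 pools of the series were used. The members were chosen by their per3 values and not by a label. Neither the hour of collection, the light schedule nor the clutch of a pool is given in the sources used here.

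The clock of vertebrates is a feedback loop of transcription. The activators Clock and Bmal (arntl genes) drive the per, cry, nr1d (Rev-erb) and bhlhe (Dec) genes, whose products return to block the activators or their transcription, and the PAR bZIP factors Dbp, Tef and Hlf with their repressor Nfil3 pass the rhythm on to output genes. In zebrafish most tissues hold their own clock and can be set by light directly, and per2 and cry1aa are known for their response to light.

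The values are the deposited signal, which is the number of reads of a transcript divided by 1 factor per library, and they are called normalized reads here. Per library, 17023269 to 19156581 reads lay in all transcripts and 8111192 to 9683579 in the 1 transcript taken per gene, and the 10 most abundant genes held 8.31% to 11.7% of the latter. The classes were set by a measured transcript, so differences between them are described with their standard error (SE) and carry no p-value. Values of high-per3 pools are given in the order mutant 1, mutant 3, wild type 1, and values of low-per3 pools in the order mutant 2, wild type 2, wild type 3. Differences are high minus low on the log2(value + 1) scale with genotype in the fit (n = 3 pools in each class), and a gene is called higher or lower when no pool of 1 class overlaps the other class and the difference is at least 1. Overlap was judged on values without adjustment for genotype. Each class mixed both genotypes, so a gene with a large genotype difference tends to overlap and can hardly be called. The wild type had 1 high pool and the mutant 1 low pool, and these 2 libraries stood at the ends of the second principal component (27.2% of variance), with scores of -53.0 for mutant replicate 2 and 60.4 for wild type replicate 1, whereas the other 4 lay between -18.2 and 8.51. Without both libraries class and genotype coincide, and no fit can be had. The target of the mutation, znf469, had 233, 209 and 296 in high-per3 pools, against 186, 198 and 206 in low-per3 pools. Its transcript was therefore present in mutant pools, and this level does not check the 4-base deletion. Markers of muscle, liver, gut, skin, nerve, lens and cartilage were present in all 6 pools, and the bone marker bglap was at or near 0.

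per3, whose protein belongs to the negative limb of the clock, had, in normalized reads, 354, 518 and 564 in high-per3 pools, against 95.9, 88.3 and 86.1 in low-per3 pools. The class threshold fell in the gap between 354.1 in mutant replicate 1 and 95.9 in mutant replicate 2. In the authors' deposited table, per3 had a log2 fold change of 0.39 between mutant and wild type with a q-value of 0.914. The rest of the core clock was checked against this label. Of 47 core clock genes tested, 14 were called higher in high-per3 pools, per3 among them, and 2 were called lower, against 5.25% and 0.895% of all 22803 genes. The count of 2 was 1 without wild type replicate 1, 3 without mutant replicate 1 and 4 without mutant replicate 2. In these fits 755, 313 and 435 of all 22803 genes were called lower, more than in the fit of all pools. The median difference of the 47 genes was 0.23, and it was 0.34 inside the mutant and 0.28 inside the wild type.

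The repressor per1a had 334, 663 and 1134 in high-per3 pools, against 131, 178 and 178 in low-per3 pools, a difference of 2.25 (SE 0.27). Its paralog per1b had 1961, 2753 and 2814 in high-per3 pools, against 1184, 1027 and 850.0 in low-per3 pools. Neither gene overlapped between the classes. nr1d1, which encodes the nuclear receptor Rev-erb alpha that represses bmal transcription, had 1525, 3318 and 3277 in high-per3 pools, against 814, 932 and 1193 in low-per3 pools. The Dec repressor bhlhe41 had 214, 484 and 601 in high-per3 pools, against 157, 199 and 175 in low-per3 pools, and here mutant replicate 1 lay just above the low pools. The output factor dbpb had 490.0, 729.7 and 935 in high-per3 pools, against 231, 265 and 205 in low-per3 pools, a difference of 1.69 (SE 0.21). tefb, of the same family, had 1284, 1364 and 1151 in high-per3 pools, against 649, 513 and 441 in low-per3 pools, and its 3 high pools lay close together. cry2 had 338, 683 and 672 in high-per3 pools, against 251, 266 and 287 in low-per3 pools. The Clock-binding repressor cipcb had 115, 158 and 163 in high-per3 pools, against 77.6, 33.3 and 18.8 in low-per3 pools, and the retinoid-related receptor rorb had 76.8, 58.7 and 82.2 in high-per3 pools, against 24.8, 17.7 and 11.9 in low-per3 pools. All 4 of these genes kept the classes apart.

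On the positive limb, arntl1a, a bmal gene, had 267, 145 and 130.3 in high-per3 pools, against 282, 276 and 305 in low-per3 pools. Wild type replicate 1 and mutant replicate 3 held less than 150 normalized reads, and mutant replicate 1 lay just under the low pools. The related genes arntl1b and arntl2 overlapped. arntl1b ranged from 108 to 212 in high-per3 pools, against 158 to 174 in low-per3 pools, and arntl2 from 23.4 to 38.1, against 20.8 to 51.7. cry4 was called lower, with 211, 149 and 129 in high-per3 pools, against 376, 282 and 322 in low-per3 pools and a difference of -1.15 (SE 0.17). cry1bb was also called lower, with 446, 362 and 93.5 in high-per3 pools, against 483, 467 and 628 in low-per3 pools, where wild type replicate 1 stood far below every other pool. clocka, the partner of Bmal, was on the higher side, with 91.8, 64.9 and 70.8 in high-per3 pools, against 32.3, 36.3 and 25.7 in low-per3 pools. clockb and npas2 overlapped. clockb ranged from 463 to 733 in high-per3 pools, against 367 to 614 in low-per3 pools, and npas2 from 79.3 to 139, against 80.2 to 113. The light-responsive genes per2 and cry1aa did not separate the classes, and neither did cry1ab. per2 had 472, 1163 and 459.9 in high-per3 pools, against 703, 861 and 927 in low-per3 pools, with mutant replicate 3 above and the other high pools below the low pools. cry1aa had 1389, 1809.8 and 1331 in high-per3 pools, against 1567, 1461 and 1503 in low-per3 pools, and cry1ab had 353, 507 and 339.9 in high-per3 pools, against 380.4, 343 and 371 in low-per3 pools.

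**Figure D1:**
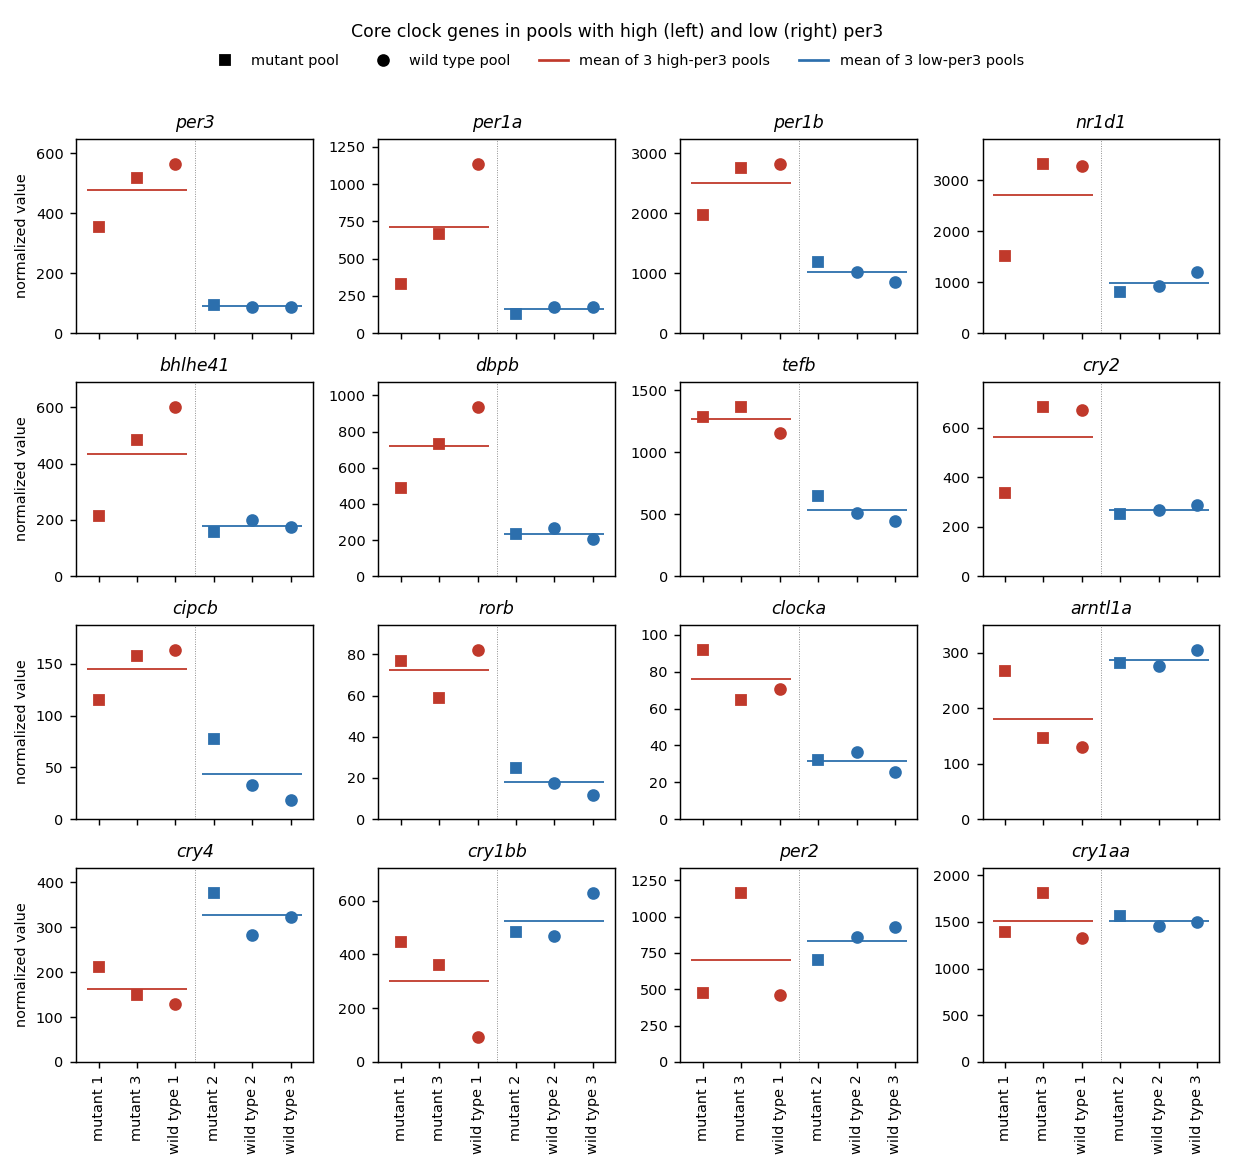
Normalized reads of 16 core clock genes in each pool (1 point per pool, squares mutant, circles wild type), high-per3 pools left of low-per3 pools, lines at the class means, each vertical axis from 0. Genes such as per1a and dbpb are ordered mutant 1, mutant 3, wild type 1 inside the high class, whereas per2 and cry1aa overlap between the classes.

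Inside the high class many clock genes followed per3 in that mutant replicate 1 was lowest. A gene was counted as graded in this way when wild type replicate 1 was at least 1.5 times mutant replicate 1 and mutant replicate 3 lay above mutant replicate 1. This held for 7 of the 13 core clock genes called higher other than per3 itself, and for 173 of the 1183 other genes called higher (14.6%), 100 of which had a mean of 20 or more. A flat level, with the highest of the 3 high pools under 1.5 times the lowest, was seen in 5 of the 13 core clock genes and in 693 of the 1183 others (58.6%). Both patterns were defined after the values were seen. The high class had wild type replicate 1 as its only wild type pool, so grading and a genotype difference cannot be told apart.

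Across all 22803 genes, 1197 (5.25%) were called higher in high-per3 pools and 204 (0.895%) lower. Without the size criterion, 2646 genes (11.6%) lay higher with no overlap and 3171 (13.9%) lower. This split turned with the scaling: with median-of-ratios size factors 2999 genes lay higher and 2317 lower. The count of 204 lower genes was 755 without wild type replicate 1, 435 without mutant replicate 2, and 313, 336 and 314 without mutant replicate 1, wild type replicate 2 and wild type replicate 3. With fewer pools, fewer genes can overlap: the genes without overlap came to 3766 higher and 5653 lower without wild type replicate 1, and to 4243 and 5285 without mutant replicate 2. The median difference of all genes was -0.10, so small negative medians of a list stand near that of the genome. Genes called higher were mostly of low or middle level. They made up 413 of 5415 genes with a mean under 20 normalized reads (7.63%), 566 of 6832 genes with a mean from 20 to 100 (8.28%), 206 of 7425 genes from 100 to 500 (2.77%) and 12 of 3131 genes at 500 or more (0.383%). Genes with a mean under 100 together held 4.60%, 4.78% and 5.04% of the reads of high-per3 pools, against 4.00%, 4.44% and 4.06% in low-per3 pools, without overlap. Whether this share has a part in the counts was not tested. The value is that of 1 annotated transcript of a gene.

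The contrast can be taken inside each genotype with no pool in common: mutant replicates 1 and 3 minus mutant replicate 2, and wild type replicate 1 minus the mean of wild type replicates 2 and 3. The differences had the same sign in 14116 of 22803 genes (61.9%), and their Pearson r across genes, which are not independent replicates, was 0.32. A difference of 1 or more was found for 1819 of 22803 genes in the mutant and for 2382 of 22803 in the wild type. The 871 genes found in both were 47.9% of the mutant set and 36.6% of the wild type set. A difference of -1 or less was found for 1387 of 22803 genes in the mutant and 822 of 22803 in the wild type. The 126 shared genes were 9.08% of the mutant set and 15.3% of the wild type set. Among the 17388 genes with a mean of 20 or more, 24 were shared on this side (4.09% and 8.79%), against 517 on the higher side (55.9% and 43.0%). At a mean of 100 or more, 4 were shared on the lower side (1.97% and 4.35%) and 151 on the higher side.

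**Figure D2:**
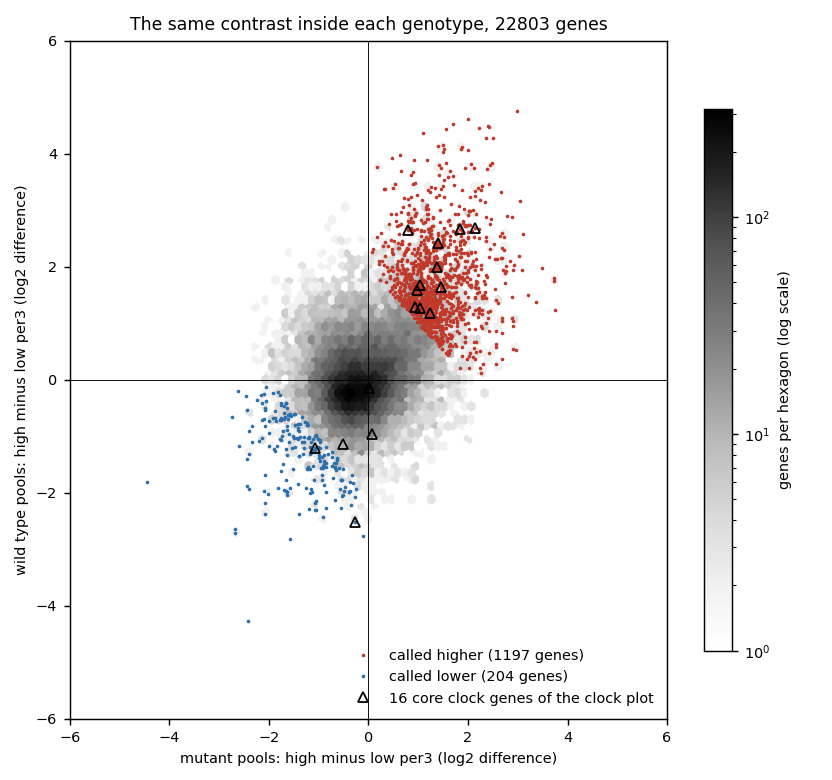
Log2 difference between high-per3 and low-per3 pools inside the mutant (horizontal axis) and inside the wild type (vertical axis) for 22803 genes, shaded by genes per hexagon on a log scale, with genes called higher in red, lower in blue and the 16 core clock genes of the clock plot as triangles. The 1197 genes called higher lie in the upper right and the 204 genes called lower in the lower left. A call needs classes without overlap, which fixes the sign inside each genotype, so these positions follow from the call.

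Beyond the core clock, the genes with the largest differences were mostly receptors, transporters and membrane proteases with small values in low-per3 pools. mmp24, a membrane-anchored matrix metalloproteinase, had 72.1, 46.4 and 64.2 in high-per3 pools, against 6.46, 1.96 and 0.990 in low-per3 pools, a difference of 3.86 (SE 0.48). mmp16b, of the same class of proteases, had 62.8, 64.9 and 79.3 in high-per3 pools, against 11.9, 12.7 and 4.95 in low-per3 pools. adam15, a metalloprotease with a disintegrin domain, had 49.7, 58.7 and 67.99 in high-per3 pools, against 6.46, 8.83 and 7.92 in low-per3 pools. In all 3 genes the lowest high pool was several times the highest low pool. These genes, like the receptors, transporters and other genes named next, were picked for a large difference and no overlap. Clear separation of the classes and small values in low-per3 pools therefore follow in part from the choice.

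Receptors of inhibitory neurotransmission were among the named genes. glra1, a glycine receptor subunit, had 97.4, 119.6 and 122 in high-per3 pools, against 19.4, 19.6 and 4.95 in low-per3 pools, a difference of 2.94 (SE 0.46). gabbr2, a subunit of the metabotropic GABA receptor, had 52.5, 69.1 and 52.9 in high-per3 pools, against 8.62, 8.83 and 1.98 in low-per3 pools. adcyap1r1a, a receptor of the neuropeptide PACAP, had 42.2, 35.04 and 53.8 in high-per3 pools, against 14.01, 3.92 and 0.990 in low-per3 pools. In glra1 and adcyap1r1a wild type replicate 3 was the lowest of all pools, and mutant replicate 2 was the low pool nearest to the high class in adcyap1r1a. The TGF-beta type I receptor tgfbr1b had 44.03, 55.7 and 78.4 in high-per3 pools, against 22.6, 3.92 and 1.98 in low-per3 pools, and the activin receptor acvr1bb had 83.4, 108 and 142 in high-per3 pools, against 19.4, 34.3 and 5.94 in low-per3 pools. The low pools of these receptors were spread widely, so that the SE was 0.63 for tgfbr1b and 0.54 for acvr1bb.

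slc27a4, a fatty acid transporter, had 52.5, 43.3 and 91.6 in high-per3 pools, against 16.2, 12.7 and 0.990 in low-per3 pools, and slc8a4a, a sodium-calcium exchanger, had 67.5, 82.5 and 106 in high-per3 pools, against 16.2, 11.8 and 8.91 in low-per3 pools. The RNA-binding regulator rc3h1a had 59.02, 52.6 and 76.5 in high-per3 pools, against 11.9, 10.8 and 3.96 in low-per3 pools. chico had 51.5, 44.3 and 59.5 in high-per3 pools, against 14.01, 5.88 and 0 in low-per3 pools. These 4 genes, too, had wild type replicate 1 highest and wild type replicate 3 lowest.

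The genes whose difference was largest for its error had higher levels and flat values. sgip1a, an endocytic adaptor, had 571, 585 and 506 in high-per3 pools, against 229.5, 203 and 189 in low-per3 pools, a difference of 1.35 (SE 0.13). apc2, a regulator of Wnt signalling, had 456, 434 and 436 in high-per3 pools, against 137, 192 and 163 in low-per3 pools, and the kinase hipk2 had 403, 432 and 412 in high-per3 pools, against 159, 133 and 106 in low-per3 pools. adam22, a synaptic membrane protein of the ADAM family, had 377, 371 and 349 in high-per3 pools, against 139, 88.3 and 76.2 in low-per3 pools. The cation channel trpm3 had 199, 239 and 202 in high-per3 pools, against 59.3, 44.1 and 29.7 in low-per3 pools, a difference of 2.15 (SE 0.23). ppm1e, a protein phosphatase, had 112, 125 and 119.9 in high-per3 pools, against 29.1, 28.4 and 25.7 in low-per3 pools. Unlike per3, these 6 genes had nearly the same value in the 3 high pools, mutant replicate 1 included. They were picked by their difference divided by its error, so little spread inside a class follows in part from the choice.

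**Figure D3:**
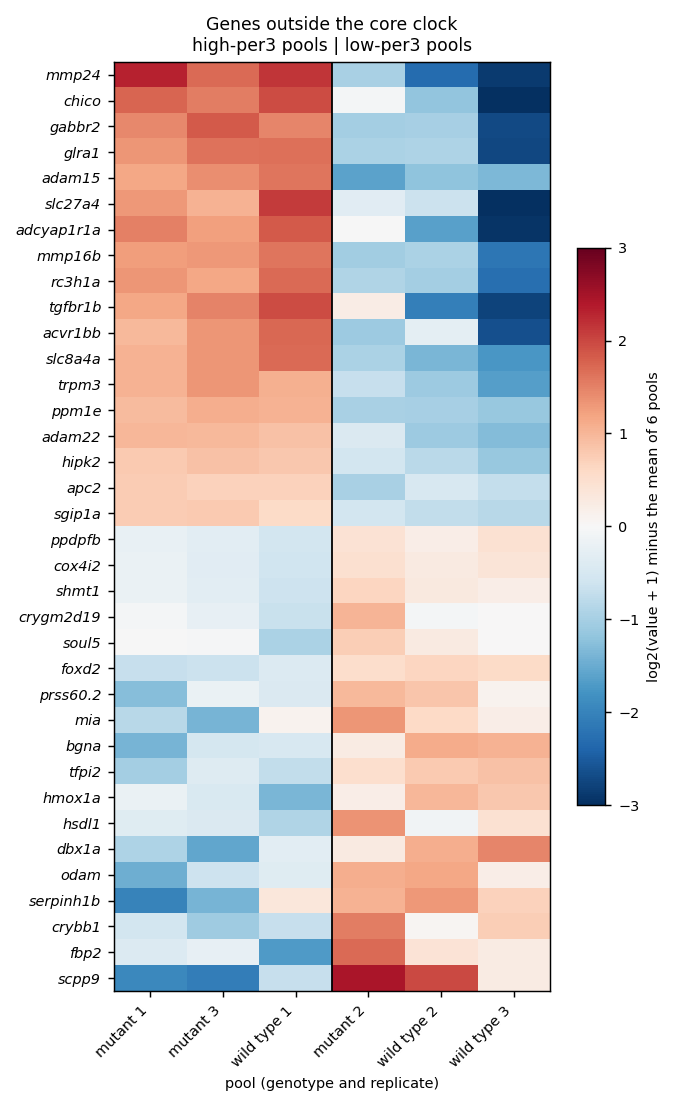
Log2(value + 1) minus the mean of the 6 pools for the 36 genes named by the size of their difference or of its ratio to the error, 1 row per gene and 1 column per pool, high-per3 pools left of the line. Genes such as apc2 and ppm1e are even across the 3 high pools, while fbp2 is also higher in each mutant class than in the wild type pools of that class.

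Families of genes were then counted by their symbols, a grouping made after the values were seen. Of 107 potassium channel subunits and partners, 27 (25.2%) were called higher and 0 lower, with a median of 0.33. This share stands beside 5.25% of all genes and 8.28% of genes with a mean from 20 to 100. kcnh7, a voltage-gated potassium channel, had 88.1, 98.9 and 89.7 in high-per3 pools, against 32.3, 16.7 and 13.9 in low-per3 pools, a difference of 1.99 (SE 0.29). kcna3a, of the Shaker family, had 46.8, 53.6 and 43.4 in high-per3 pools, against 11.9, 13.7 and 16.8 in low-per3 pools. Of 47 voltage-gated calcium channel subunits, 12 (25.5%) were called higher and 0 lower, with a median of 0.26. The pore-forming subunit cacna1da had 174, 189.6 and 170.0 in high-per3 pools, against 86.2, 71.6 and 62.3 in low-per3 pools, and its paralog cacna1db had 245, 237 and 194 in high-per3 pools, against 98.1, 84.3 and 95.00 in low-per3 pools. Of 18 GABA-A receptor subunits, 5 (27.8%) were called higher and 0 lower, with a median of 0.56. Among 14 voltage-gated sodium channel subunits 1 was called higher and 0 lower (median 0.50), and 2 were called higher without wild type replicate 1, wild type replicate 2 or mutant replicate 2, and 3 without mutant replicate 1. Of 25 ionotropic glutamate receptor subunits, 2 were called higher and 0 lower, with a median of 0.16, and -0.05 inside the wild type. This count was 1 without wild type replicate 1, wild type replicate 3 or mutant replicate 1.

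Pan-neuronal genes did not separate the classes. The RNA-binding protein gene elavl3 had 5167, 4634 and 4486 in high-per3 pools, against 4641, 4732 and 5481 in low-per3 pools, and the synaptic gene snap25a had 3852, 3279.5 and 2954 in high-per3 pools, against 4041, 3602 and 4383 in low-per3 pools. elavl4 had 3265, 3037 and 2925 in high-per3 pools, against 3181, 3072 and 3604 in low-per3 pools. The 3 of 3 neuronal markers summed to 10366 to 12285 in high-per3 pools, against 11406 to 13468 in low-per3 pools, so their level overlapped between the classes. Overlap was also seen in 67 of 107 potassium channel genes, 22 of 47 calcium channel genes and 11 of 18 GABA-A receptor genes. Whether the number of neurons has a part in the channel differences was not tested. In pools of whole larvae, more cells of a type and more RNA per cell cannot be told apart.

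Families of guidance, adhesion and the cytoskeleton were counted too, against 5.25% of all genes called higher. Of 29 semaphorins, 7 (24.1%) were called higher and 0 lower (median 0.29), and of 19 Eph receptors, 5 (26.3%) and 0 (median 0.28). Without wild type replicate 1, 3 semaphorins were called higher. Of 39 ADAM proteases and matrix metalloproteinases, 9 (23.1%) were called higher and 0 lower although their median was -0.10, that of all genes. Of 19 TGF-beta, activin and BMP receptors, 4 (21.1%) were called higher and 0 lower (median 0.13). Both of these families were formed after the values were seen. They hold genes named above for a large difference, such as mmp24, adam15, tgfbr1b and acvr1bb, so their shares follow in part from the choice. Among kinesins the count called higher was 3 of 44 (6.82%), and 5 without wild type replicate 2, and no tubulin of 22 was called in either direction (median -0.30). The 64 protocadherin genes had 15 called higher, but members of a cluster share their constant exons. All 11 pcdh2a genes had means within 10% of their median of 216, with differences from 1.09 to 1.202, so they count as 1 signal and not as 11. The 11 pcdh1g genes were lower in high-per3 pools, with differences from -0.52 to -0.50. Outside the clusters, pcdh9 had 212, 199.9 and 169 in high-per3 pools, against 80.8, 72.6 and 44.5 in low-per3 pools, a difference of 1.45 (SE 0.22).

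**Figure D4:**
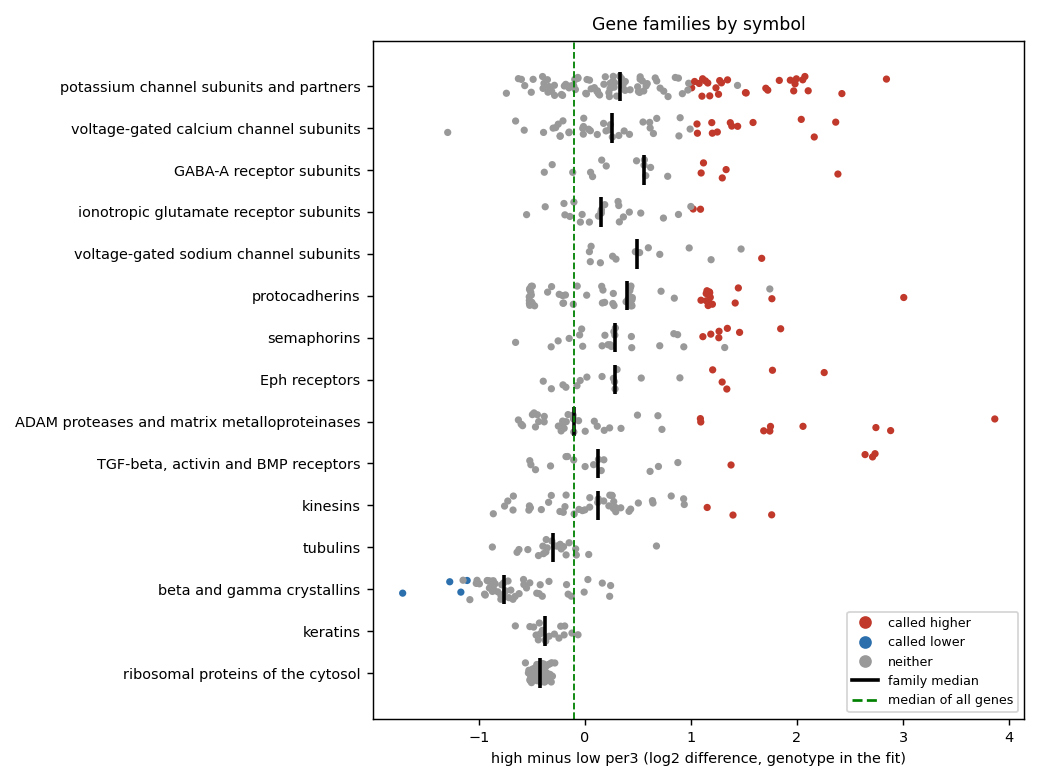
High minus low per3 difference (log2 scale, genotype in the fit) of each gene in 15 families taken by symbol, 1 point per gene, with points called higher in red and lower in blue, a bar at the family median and a dashed line at the median of all genes (-0.10). Channel and receptor families have tails beyond 1, whereas ribosomal proteins and crystallins lie left of the line.

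Of 81 ribosomal proteins of the cytosol, 72 lay lower in high-per3 pools with no overlap, against 13.9% of all genes, and none reached a difference of -1. Their median was -0.42, with -0.58 inside the mutant and -0.28 inside the wild type. With median-of-ratios size factors the count was 55 of 81 and the median -0.36. rpl38 had 1868, 1958 and 1787 in high-per3 pools, against 2864, 2338 and 2572 in low-per3 pools, and rps15a had 3506, 3647 and 3388 in high-per3 pools, against 5495, 4276 and 4981 in low-per3 pools. In both genes all pools of the high class lay under all pools of the low class, with mutant replicate 2 highest. These genes held 7.76%, 8.04% and 7.33% of the reads of high-per3 pools, against 9.55%, 7.94% and 8.49% in low-per3 pools, where mutant replicate 3 overlapped wild type replicate 2. Ribosome biogenesis factors, which build the particle in the nucleolus, had 0 of 66 genes without overlap in either direction. Of these 66 genes, 47 were called higher in mutant pools by the genotype test given below (median 0.81). Overlap was judged without adjustment for genotype, so this 0 cannot be set against the 72 of 81.

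Of 61 skeletal muscle genes, 3 (4.92%) lay higher and 21 (34.4%) lower without overlap, against 11.6% and 13.9% of all genes (median -0.38). With median-of-ratios size factors the counts were 4 and 15. The 3 muscle markers fixed for the tissue check, actc1b, ckma and mylpfa, summed to 172656 to 301703 in high-per3 pools, against 324026 to 448964 in low-per3 pools, with no overlap. Whether this level has a part in the other differences was not tested. ckma, the muscle creatine kinase, had 51488, 43652 and 52705 in high-per3 pools, against 64686, 57576 and 73104 in low-per3 pools, and ldha, a lactate dehydrogenase, had 1272, 1276 and 1235 in high-per3 pools, against 1857, 1821 and 1704 in low-per3 pools. tnnc1b, a troponin C, had 468, 388 and 658 in high-per3 pools, against 822, 869 and 931 in low-per3 pools. cacna1sb, the calcium channel of the muscle fibre, ran the other way with overlap, at 1028, 915 and 1478 in high-per3 pools, against 741, 1093 and 1224 in low-per3 pools. Among genes of muscle atrophy and repair, 2 of 34 lay higher and 4 lower without overlap (2 and 2 with median-of-ratios size factors, median -0.20), and map1lc3b, an autophagy gene, had 1439.9, 1413 and 1181 in high-per3 pools, against 1786, 1857 and 2038 in low-per3 pools. ctsla, a lysosomal protease, had 2819.8, 2998 and 1777 in high-per3 pools, against 4559.9, 2759 and 2597 in low-per3 pools, and xirp2a, an actin-binding protein of muscle, had 883, 1248 and 1858 in high-per3 pools, against 668, 1035 and 892 in low-per3 pools, both with overlap.

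The lens crystallins of the beta and gamma classes had 15 of 53 genes (28.3%) lower without overlap and 0 higher, against 13.9% and 11.6% of all genes. Of the 53, 4 (7.55%) were called lower, against 0.895% of all genes. With median-of-ratios size factors 10 lay lower and 0 higher, where 2317 and 2999 of all 22803 genes did. Leaving out wild type replicate 1 gave 15 called genes, leaving out wild type replicate 2 gave 11, and leaving out mutant replicate 2 gave 1. In these fits 755, 336 and 435 of all genes were called lower. Their median was -0.77, with -1.12 inside the mutant and -0.38 inside the wild type. crybb1 had 6882, 4787 and 6239 in high-per3 pools, against 29053, 10560.0 and 16854 in low-per3 pools, a difference of -1.72 (SE 0.29), with mutant replicate 2 highest of all. crygm2d19 had 2990.3, 2614 and 1968 in high-per3 pools, against 6296, 3023 and 3175 in low-per3 pools. The 3 lens markers of the tissue check summed to 3375 to 4833 in high-per3 pools, against 4819 to 5706 in low-per3 pools, with slight overlap. Near-identical crystallin copies may have exchanged reads.

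The other genes named on the lower side included genes of mineralized tissue, matrix and metabolism, and some outside these groups, such as dbx1a and foxd2. scpp9, a secreted calcium-binding phosphoprotein, had 4.68, 4.12 and 12.3 in high-per3 pools, against 117, 84.3 and 24.7 in low-per3 pools, a difference of -3.14 (SE 0.62). odam, a gene of tooth and epithelial attachment, had 6.56, 12.4 and 15.1 in high-per3 pools, against 43.1, 45.1 and 22.8 in low-per3 pools. serpinh1b, the collagen chaperone Hsp47, had 20.6, 31.9 and 109 in high-per3 pools, against 178, 212 and 139.5 in low-per3 pools, and its high pools ranged more than 5-fold with wild type replicate 1 on top. The small proteoglycan gene bgna had 13.1, 24.7 and 25.5 in high-per3 pools, against 43.1, 78.5 and 75.2 in low-per3 pools, and mia, a secreted cartilage protein, had 40.3, 26.8 and 78.4 in high-per3 pools, against 184, 111 and 83.1 in low-per3 pools. tfpi2, a protease inhibitor, had 16.9, 26.8 and 20.8 in high-per3 pools, against 50.6, 61.8 and 66.3 in low-per3 pools. dbx1a, a homeobox gene of the spinal cord, had 10.305, 6.18 and 16.1 in high-per3 pools, against 24.8, 44.1 and 57.4 in low-per3 pools. foxd2, a forkhead factor, had 67.5, 69.1 and 82.2 in high-per3 pools, against 158, 172 and 162 in low-per3 pools, a difference of -1.11 (SE 0.17) with little spread in either class. prss60.2 had 11.2, 24.7 and 20.8 in high-per3 pools, against 57.1, 51.98 and 30.7 in low-per3 pools, and hsdl1 had 19.7, 18.6 and 13.2 in high-per3 pools, against 66.8, 23.5 and 35.6 in low-per3 pools. cox4i2, a subunit of cytochrome c oxidase, had 376, 338 and 283 in high-per3 pools, against 596, 519.8 and 558 in low-per3 pools. ppdpfb had 1125, 1058 and 907 in high-per3 pools, against 1793, 1529.9 and 1802 in low-per3 pools, and soul5, of a heme-binding family, had 543, 533 and 283 in high-per3 pools, against 918, 658 and 551 in low-per3 pools.

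Eye and pineal genes went in both directions. Of 49 photoreceptor genes, 7 (14.3%) lay higher and 13 (26.5%) lower without overlap, against 11.6% and 13.9% of all genes. With median-of-ratios size factors the counts were 8 and 10. cnga3a, a subunit of the cone cyclic nucleotide-gated channel, had 265, 344 and 421 in high-per3 pools, against 196, 161 and 150.4 in low-per3 pools, graded like per3. The same order inside the high class was seen for slc24a2, the exchanger of cones, with 265, 371 and 446 in high-per3 pools, against 164, 142 and 154 in low-per3 pools. It was also seen for rp1l1b, a gene of the photoreceptor axoneme, with 121, 178 and 215 in high-per3 pools, against 87.3, 57.9 and 52.4 in low-per3 pools, and for impg2b, a proteoglycan of the matrix around photoreceptors, with 237, 422 and 429.7 in high-per3 pools, against 167, 150.0 and 173 in low-per3 pools. myo3a, a class III myosin, had 135, 215 and 236 in high-per3 pools, against 66.8, 97.1 and 85.1 in low-per3 pools. These 4 genes were chosen after their values were seen. Both cone opsins named by the rule had negative differences. opn1mw2, a green opsin, had 364, 211 and 473 in high-per3 pools, against 543, 1193 and 1385 in low-per3 pools, a difference of -1.203 (SE 0.21). The red opsin opn1lw2 had 3451, 1999 and 5272 in high-per3 pools, against 5118, 10826 and 12803 in low-per3 pools, where wild type replicate 1 overlapped mutant replicate 2. Near-identical opsin copies may have exchanged reads. Cone transducin gnat2 had 5671, 5025 and 7714 in high-per3 pools, against 5566, 8271 and 9889 in low-per3 pools and overlapped. The 3 photoreceptor markers, opn1lw2 among them, summed to 10755 to 17579 in high-per3 pools, against 14630 to 25570 in low-per3 pools.

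Of 31 pineal and melatonin genes, 4 (12.9%) lay higher and 1 (3.23%) lower without overlap, against 11.6% and 13.9% of all genes. aanat2, the rate-limiting enzyme of melatonin synthesis in the pineal gland and a rhythmic gene, had 29.04, 17.5 and 17.9 in high-per3 pools, against 36.6, 27.5 and 45.5 in low-per3 pools, and mutant replicate 1 overlapped wild type replicate 2. exorh, the opsin of the pineal gland, had 44.97, 31.9 and 41.5 in high-per3 pools, against 67.9, 65.7 and 64.3 in low-per3 pools. The melatonin receptor mtnr1ab had 19.7, 15.5 and 26.4 in high-per3 pools, against 4.31, 10.8 and 8.91 in low-per3 pools, a difference of 1.57 (SE 0.38).

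Known outputs of the clock in metabolism were read gene by gene. Of 36 genes of fatty acid synthesis and storage, 7 (19.4%) lay higher and 5 (13.9%) lower without overlap, against 11.6% and 13.9% of all genes, and the counts were 8 and 2 with median-of-ratios size factors. srebf1, the transcription factor that drives lipogenic genes, had 487, 477 and 343 in high-per3 pools, against 232, 156 and 81.1 in low-per3 pools, a difference of 1.33 (SE 0.24). fasn, fatty acid synthase, had 793, 961 and 1010.4 in high-per3 pools, against 651, 561 and 574 in low-per3 pools. fitm2, a protein of lipid droplet formation, had 116, 135 and 100.1 in high-per3 pools, against 206, 135 and 139.5 in low-per3 pools, where mutant replicate 3 lay only just under wild type replicate 2. Of 49 genes of fatty acid oxidation, 3 (6.12%) lay higher and 10 (20.4%) lower, and the counts were 5 and 7 with those size factors. ppargc1a, the coactivator of mitochondrial genes, had 157, 217 and 154 in high-per3 pools, against 59.3, 94.1 and 81.1 in low-per3 pools, a difference of 1.22 (SE 0.23). The oxidation enzymes acadm and etfdh were on the other side. acadm had 1046, 1055 and 1131 in high-per3 pools, against 1651, 1547 and 1402 in low-per3 pools, and etfdh had 265, 256 and 309 in high-per3 pools, against 442, 433 and 407 in low-per3 pools. Among 39 genes of cholesterol synthesis and uptake 3 (7.69%) lay higher and 3 (7.69%) lower. The exporter abca1a had 4196, 4494 and 3177 in high-per3 pools, against 3045, 2399 and 2163 in low-per3 pools. The synthesis enzymes msmo1 and tm7sf2 overlapped. msmo1 had 211, 175 and 84.04 in high-per3 pools, against 305, 150.0 and 145 in low-per3 pools, and tm7sf2 had 131, 124 and 87.8 in high-per3 pools, against 215, 126 and 124 in low-per3 pools.

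Of 51 glucocorticoid targets and genes of gluconeogenesis, 6 (11.8%) lay higher and 4 (7.84%) lower, against 11.6% and 13.9% of all genes, and with median-of-ratios size factors 7 and 2. Of the 51, 4 (7.84%) were called higher and 1 (1.96%) lower, against 5.25% and 0.895% of all genes. crebrf, a regulator in the glucocorticoid and stress response, had 41.2, 40.2 and 50.05 in high-per3 pools, against 5.39, 13.7 and 10.9 in low-per3 pools, a difference of 2.33 (SE 0.34). klf15, a rhythmic regulator of amino acid and glucose use, had 733, 1001 and 907 in high-per3 pools, against 418, 549 and 421 in low-per3 pools. fbp2, a fructose bisphosphatase, had the smallest error for its size among the genes named on the lower side. It had 235, 262 and 96.3 in high-per3 pools, against 1013, 418 and 371 in low-per3 pools, a difference of -2.02 (SE 0.13), which was -2.02 inside the mutant and -2.02 inside the wild type. slc2a1a, the glucose transporter Glut1, had 193, 211 and 256 in high-per3 pools, against 80.8, 133 and 103 in low-per3 pools, a difference of 1.22 (SE 0.17). It stood in a list of 38 hypoxia genes with 5 higher and 6 lower (7 and 5 with those size factors), where ndrg1b overlapped with 1965, 1299 and 342 in high-per3 pools, against 2122, 1543 and 1603 in low-per3 pools. nocta, the rhythmic gene nocturnin, had 277, 336 and 438 in high-per3 pools, against 265, 98.1 and 114 in low-per3 pools, and here mutant replicate 2 lay just under mutant replicate 1. It was chosen after its values were seen.

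Of 50 genes of amino acid metabolism, 2 (4%) lay higher and 13 (26%) lower, against 11.6% and 13.9% of all genes, and with median-of-ratios size factors 4 and 11. prodha, which starts the breakdown of proline, had 1075, 1409 and 1089 in high-per3 pools, against 681, 646 and 599.7 in low-per3 pools. bhmt, which remethylates homocysteine, had 10178, 8178 and 8818 in high-per3 pools, against 14809, 12359.5 and 13116 in low-per3 pools, and mccc1, of leucine breakdown, had 449.7, 399.9 and 404 in high-per3 pools, against 573, 563 and 546 in low-per3 pools. shmt1, which links serine, glycine and folate, had 346, 318 and 256 in high-per3 pools, against 613, 482 and 455 in low-per3 pools, a difference of -0.88 (SE 0.13). In the 39 genes of nucleotide synthesis, which include shmt1, 0 (0%) lay higher and 5 (12.8%) lower, or 1 and 4 with those size factors, and pnp4b and adss overlapped. pnp4b had 1029, 1089 and 648 in high-per3 pools, against 1415, 869.9 and 841 in low-per3 pools, and adss had 199.5, 152 and 251 in high-per3 pools, against 131, 153 and 112 in low-per3 pools. Of 30 genes of heme and NAD, 2 (6.67%) lay higher and 8 (26.7%) lower, or 2 and 6 with those size factors. hmox1a, heme oxygenase 1, had 119, 99.97 and 52.9 in high-per3 pools, against 159, 278 and 243 in low-per3 pools, and its relative hmox2b had 68.4, 72.1 and 128 in high-per3 pools, against 32.3, 61.8 and 34.6 in low-per3 pools. hmox2a overlapped, with 419.7, 422 and 202 in high-per3 pools, against 531, 375 and 371 in low-per3 pools. Of 48 genes of xenobiotic metabolism, 1 (2.08%) lay higher and 5 (10.4%) lower. The glutathione transferase gstt1a had 393, 337 and 429 in high-per3 pools, against 625, 599 and 559 in low-per3 pools, and gstt1b overlapped with 86.2, 70.08 and 164 in high-per3 pools, against 142, 266 and 253 in low-per3 pools. ugt5a1, a glucuronosyltransferase, had 9.37, 9.28 and 17.00 in high-per3 pools, against 7.54, 4.90 and 1.98 in low-per3 pools.

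Of 51 liver secreted proteins, 1 (1.96%) lay higher and 15 (29.4%) lower, against 11.6% and 13.9% of all genes (median -0.24). With median-of-ratios size factors the counts were 1 and 13. ambp, a plasma protease inhibitor precursor, had 426, 394 and 470.3 in high-per3 pools, against 689.6, 852 and 728 in low-per3 pools, and apom, an apolipoprotein, had 423, 432 and 381 in high-per3 pools, against 678, 619 and 763 in low-per3 pools. The growth factor igf1 had 32.8, 24.7 and 20.8 in high-per3 pools, against 12.9, 18.6 and 19.8 in low-per3 pools. Of 38 genes of ionocytes and salt transport, 5 (13.2%) lay higher and 3 (7.89%) lower. The sodium-calcium exchanger slc8a1b had 177, 174 and 216 in high-per3 pools, against 63.6, 70.6 and 39.6 in low-per3 pools, a difference of 1.73 (SE 0.25), and the prolactin receptor prlra had 452, 515 and 435 in high-per3 pools, against 266, 233 and 242 in low-per3 pools. pvalb8, a parvalbumin, had 1268, 1218 and 948 in high-per3 pools, against 1863, 1410.2 and 1351 in low-per3 pools.

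Of 61 cell cycle genes, 0 (0%) lay higher and 8 (13.1%) lower without overlap, against 11.6% and 13.9% of all genes. The median was -0.42 against -0.10 for all genes. By the genotype test 37 of the 61 were called lower in mutant pools (median -1.28), and overlap was judged without adjustment for genotype. Of these 61, 2 (3.28%) were called lower in high-per3 pools, against 0.895% of all genes. Leaving out wild type replicate 1 gave 13, where 755 of all genes were called lower. Leaving out wild type replicate 2 gave 3, where 336 of all genes were. Leaving out mutant replicates 1, 2 and 3 in turn gave counts of 4, 5 and 1, where 313, 435 and 294 of all genes were called lower. cdk1, the kinase of mitotic entry, had 20.6, 12.4 and 37.8 in high-per3 pools, against 43.1, 62.8 and 95.99 in low-per3 pools, and mcm7, of the replicative helicase, had 706, 627 and 593 in high-per3 pools, against 889, 1010.1 and 1239.9 in low-per3 pools. mcm4 overlapped with 160.2, 199.9 and 269 in high-per3 pools, against 149.8, 209.9 and 221 in low-per3 pools. Of 20 cell cycle inhibitors and clock-gated kinases, 0 (0%) lay higher and 4 (20%) lower, or 1 and 3 with median-of-ratios size factors. ccng1, a target of p53, had 3328, 2833 and 2969 in high-per3 pools, against 4686, 3461 and 3705 in low-per3 pools. The inhibitor cdkn1a (p21), a clock output in mice, overlapped with 68.4, 124 and 254 in high-per3 pools, against 68.96, 53.9 and 62.3 in low-per3 pools, and wild type replicate 1 was highest. gadd45ga overlapped with 229, 213 and 163 in high-per3 pools, against 304, 221 and 251 in low-per3 pools. Of 37 photolyases and DNA repair genes, 1 (2.7%) lay higher and 9 (24.3%) lower (median -0.13). With median-of-ratios size factors the counts were 1 and 5, where 2317 of all 22803 genes lay lower. ercc1, of nucleotide excision repair, had 57.1, 66.99 and 41.5 in high-per3 pools, against 80.8, 78.5 and 96.98 in low-per3 pools, and zgc:66475 had 204, 238 and 175 in high-per3 pools, against 279, 309 and 308 in low-per3 pools. tdg.2, a DNA glycosylase, overlapped with 44.03, 34.01 and 54.8 in high-per3 pools, against 23.7, 48.1 and 48.5 in low-per3 pools.

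Among 52 heat shock proteins 1 (1.92%) lay higher and 8 (15.4%) lower, against 11.6% and 13.9% of all genes, and with median-of-ratios size factors 3 and 5. dnajb1b, a cochaperone of Hsp70, had 72.1, 66.99 and 73.7 in high-per3 pools, against 215, 93.2 and 142 in low-per3 pools, and hspa12a had 28.1, 30.9 and 38.7 in high-per3 pools, against 9.70, 14.7 and 7.92 in low-per3 pools. Among 46 genes of the endoplasmic reticulum unfolded protein response 1 (2.17%) lay higher and 6 (13%) lower, or 4 and 5 with those size factors. ern1, the sensor Ire1, had 22.5, 22.7 and 12.3 in high-per3 pools, against 2.15, 5.88 and 5.94 in low-per3 pools, while atf4a and sec61g overlapped. atf4a, a transcription factor of the response, had 2381, 2403 and 1506 in high-per3 pools, against 3634, 2088 and 2415 in low-per3 pools, and sec61g, of the translocon, had 1331, 1542 and 1148 in high-per3 pools, against 2209, 1326 and 1531 in low-per3 pools. Among 44 genes of interferon and inflammation 2 (4.55%) lay higher and 5 (11.4%) lower. lyz, the lysozyme of phagocytes, had 96.5, 91.7 and 133 in high-per3 pools, against 279, 206 and 209.8 in low-per3 pools, and lect2l, of neutrophils, had 35.6, 23.7 and 40.6 in high-per3 pools, against 100.2, 51.00 and 61.4 in low-per3 pools. nfkb1, a subunit of the transcription factor NF-kappa-B, had 37.5, 59.8 and 65.2 in high-per3 pools, against 14.01, 26.5 and 11.9 in low-per3 pools, a difference of 1.75 (SE 0.37). Among 50 genes of hormones and feeding 3 (6%) lay higher and 1 (2%) lower. The gut hormone pyya and the stress hormone gene crhb overlapped, as did asip2b. pyya had 87.1, 111 and 59.5 in high-per3 pools, against 138, 101 and 126 in low-per3 pools, crhb had 64.6, 76.3 and 43.4 in high-per3 pools, against 102, 74.5 and 77.2 in low-per3 pools, and asip2b had 46.8, 68.02 and 93.5 in high-per3 pools, against 53.9, 50.01 and 29.7 in low-per3 pools.

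Of 48 immediate early genes, 3 (6.25%) lay higher and 7 (14.6%) lower, against 11.6% and 13.9% of all genes, and with median-of-ratios size factors 5 and 6. fosaa had 149, 168 and 293 in high-per3 pools, against 72.2, 101 and 119.7 in low-per3 pools, a difference of 1.26 (SE 0.17). npas4a, which neuronal activity induces, had 1149, 1141 and 1758 in high-per3 pools, against 649, 1022 and 1265 in low-per3 pools with overlap. ctgfa, a target of Yap, had 1093, 1198 and 978 in high-per3 pools, against 1706, 1383 and 1289 in low-per3 pools. The proteasome list had no gene without overlap among 35, and its median was -0.38. Of the 35, 35 were called higher in mutant pools by the genotype test (median 1.39), and overlap was judged without adjustment for genotype. The class difference was above 0 in 0 of 35 genes inside the mutant and in 2 of 35 inside the wild type. psmc3, of the regulatory particle, had 973, 1016 and 352 in high-per3 pools, against 1354, 566 and 628 in low-per3 pools, and psma1, of the core, had 1304, 1420.2 and 622 in high-per3 pools, against 2088, 833 and 866 in low-per3 pools. In both genes the mutant pools of a class were above its wild type pools. rcl1, nop56 and utp20 of ribosome biogenesis overlapped as well. rcl1 had 342, 393 and 182 in high-per3 pools, against 482, 241 and 262 in low-per3 pools, nop56 had 1929, 1945 and 1622 in high-per3 pools, against 2618, 1739.7 and 1989 in low-per3 pools, and utp20 had 699.8, 827 and 412 in high-per3 pools, against 660.5, 261 and 229.6 in low-per3 pools.

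Several lists of peripheral tissues had medians of opposite sign inside the 2 genotypes. Exocrine pancreas enzymes had a median of -0.59 inside the mutant, where 0 of 29 genes were above 0, and of 0.42 inside the wild type, where 25 of 29 were. ctrb1, a chymotrypsinogen, had 17580.3, 23350.3 and 18869.8 in high-per3 pools, against 32663, 15824 and 11588 in low-per3 pools, with mutant replicate 2 on top. zgc:92745, zgc:112302 and ptf1a of this list overlapped between the classes. zgc:92745 had 308, 453 and 93.5 in high-per3 pools, against 679.9, 225 and 173 in low-per3 pools, and zgc:112302 had 414, 554 and 220.0 in high-per3 pools, against 562, 164 and 99.9 in low-per3 pools. The pancreatic transcription factor ptf1a had 9.37, 13.4 and 11.3 in high-per3 pools, against 12.9, 18.6 and 28.7 in low-per3 pools. Epidermis genes had medians of -0.68 and 0.22 inside the mutant and the wild type, with 0 and 25 of 36 genes above 0. krt94, a keratin, had 899, 929.6 and 718 in high-per3 pools, against 1302, 1027 and 1045 in low-per3 pools, and icn2 had 193, 176 and 487 in high-per3 pools, against 491, 693 and 536 in low-per3 pools, while wu:fi04e12 overlapped with 563, 603 and 1133 in high-per3 pools, against 632, 647 and 499 in low-per3 pools. Intestinal absorption genes had medians of -0.43 and 0.36, ionocyte genes -0.46 and 0.69, immediate early genes -0.32 and 0.51 and xenobiotic genes -0.43 and 0.22. chia.3, apoa4b.2 and apoa4a of the intestine overlapped. chia.3, a chitinase, had 113, 85.5 and 538 in high-per3 pools, against 248, 743 and 550.2 in low-per3 pools. apoa4b.2, an apolipoprotein gene, had 2205, 2283 and 1621 in high-per3 pools, against 3013, 2214 and 1851 in low-per3 pools, and its relative apoa4a had 25.3, 34.01 and 55.7 in high-per3 pools, against 18.3, 20.6 and 26.7 in low-per3 pools. Fibrillar collagens had medians of -0.67 and 0.07, and none of 16 was free of overlap. Of the 16, 12 were called lower in mutant pools (median -2.21), so their overlap says little about the class. col2a1a, the main cartilage collagen, had 1037, 774 and 8567 in high-per3 pools, against 1625, 12224 and 10160.0 in low-per3 pools, and col11a2 had 209.8, 156 and 1712 in high-per3 pools, against 322, 2317 and 2042 in low-per3 pools. In both genes the mutant pools lay far below the wild type pools in both classes. col24a1 had 66.5, 80.4 and 135 in high-per3 pools, against 15.1, 108 and 89.1 in low-per3 pools. The core clock list was positive inside both genotypes. Cell cycle, skeletal muscle and proteasome lists were negative inside both, as were other lists, fatty acid oxidation and liver secreted proteins among them. The median of all genes was also negative, at -0.15 inside the mutant and -0.04 inside the wild type. Each of these medians rests on the single high wild type pool or the single low mutant pool.

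**Figure D5:**
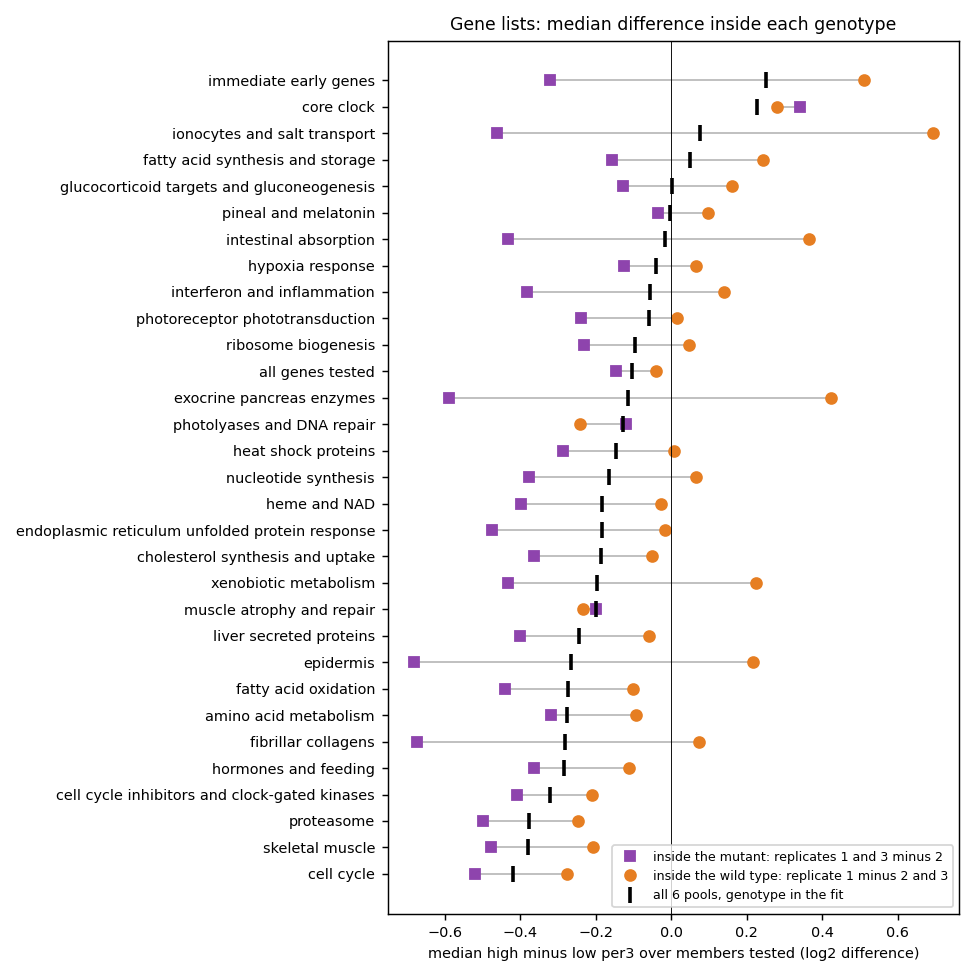
Median log2 difference between high-per3 and low-per3 pools over the tested members of 30 gene lists and of all genes, inside the mutant (squares), inside the wild type (circles) and in the fit of all 6 pools (bars). Core clock medians lie at 0.34 and 0.28, side by side, whereas exocrine pancreas enzymes lie at -0.59 and 0.42.

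The genotype contrast is set by the labels, and it was tested with limma with the per3 class, which a measured transcript set, in the fit (Benjamini-Hochberg over 22803 genes, threshold 0.05). It called 1224 genes higher in mutant pools (5.37%) and 845 lower (3.71%). Of the 1197 genes called higher in high-per3 pools, 6 (0.501%) were among the 1224 and 3 (0.251%) among the 845. Overlap between the classes was judged without adjustment for genotype. Without the class in the fit 526 and 497 genes were called, of which 525 and 493 were shared with the first fit. Leaving out 1 library moved these counts: to 541 higher and 307 lower without wild type replicate 2, to 487 and 345 without mutant replicate 3, to 737 higher without mutant replicate 2 and to 545 lower without mutant replicate 1. The calls of fbp2, opn1mw2, fosaa and nfil3-5 were lost without the class. fbp2, opn1mw2 and fosaa were named for a class difference large for its error, and this error also enters their genotype p-values. Their calls with the class in the fit follow in part from that choice. fbp2 rose by 1.36 (SE 0.13, adjusted p = 0.000353, limma) with the class in the fit, and without it the difference was 0.68 (adjusted p = 0.618, limma). opn1mw2 changed by -1.004 (SE 0.21, adjusted p = 0.0162, limma), against -1.41 (adjusted p = 0.0924, limma) without the class. fosaa changed by -0.74 (adjusted p = 0.0268, limma), against -0.32 (adjusted p = 0.748, limma) without it. nfil3-5, of the nfil3 family, had 1610.4, 987 and 448 in high-per3 pools, against 1858, 853 and 1137 in low-per3 pools. It rose by 1.203 (adjusted p = 0.00772, limma), and without the class the difference was 0.92 (adjusted p = 0.165, limma). rorcb, with 73.1, 39.2 and 4.72 in high-per3 pools, against 18.3, 3.92 and 0 in low-per3 pools, rose by 3.19 (adjusted p = 0.0114, limma), and by 3.66 (adjusted p = 0.0199, limma) without the class. For per1a the difference was -0.85 (adjusted p = 0.0781, limma) with the class and -0.10 (adjusted p = 0.962, limma) without it. per3 set the class, so its difference is given only without it, at 0.68 (adjusted p = 0.692, limma).

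The product of class and genotype compares the class difference in mutant and in wild type pools, and 87 genes (0.382%) passed limma's threshold. With classes set by a measured transcript and a single pool in 1 class of each genotype, a difference between genotypes and a deviation of 1 pool cannot be told apart here. This count fell to 0 when any 1 of wild type replicates 2 and 3 or mutant replicates 1 and 3 was left out, and the fit cannot be made without the single high wild type pool or the single low mutant pool. It was 2 with transcripts summed per gene and 0 with no filter on low values, against 182 with edgeR on the recovered reads. cry1bb was among the 87, with a difference of -0.26 inside the mutant and -2.52 inside the wild type. nocta had 0.20 inside the mutant and 2.04 inside the wild type.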

How the data were processed

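Polyadenylated RNA of 3 mutant and 3 wild type pools was sequenced with a kit that does not mark strand, per the labels' protocols. The authors deposited 1 table of 45602 transcripts of 23876 genes with a signal per library, and the submitters' processing notes name the build GRCz11. Aligner, counter and unit are not stated in any source used here. All signal values in each library were whole multiples of its smallest value (tolerance 0.001), so the deposited signal was read as counts divided by 1 factor per library. In wild type replicate 3 the step was 0.990, close to 1, and is harder to tell from rounding. It also holds, per the file headers, log2 fold changes, p-values and q-values, and only those of per3 are quoted.

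The transcript of highest mean stood for each gene. The 22803 genes that reached a value of 1 in 3 or more libraries were fitted with limma 3.58.1 in R 4.3.3 on log2(value + 1) with an intensity trend and terms for per3 class and genotype. The design assumed that raw counts might be deposited and named this fit otherwise. edgeR 4.0.16 and DESeq2 1.42.0 were run on the recovered reads as alternatives, and 16 alternatives were run for the class difference. In simulated counts for the genotype contrast, over 22803 genes, 57.0% of 86 genes changed by 1 on the log2 scale and 97.4% of 114 genes changed by 2 were recovered, with 5 false calls.

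The classes, the 30 gene lists (1262 distinct genes found in the table, some by an older symbol) and the rule for named genes were chosen with earlier results of these data known. The rule takes, beyond the core clock, genes with a mean of 20 or more and no overlap: 12 with the largest difference and the next 6 with the largest moderated statistic in each direction, and from each list 2 members in the direction of its median and 1 in the other. Families by symbol and other named genes were chosen after their values were seen. Pairs of pools of 1 genotype had a chi-square per gene of 5.72 to 23.6, more than counting noise gives, so each pool counts as 1 sample. The p-values measure the spread between pools, which may be technical. A search of promoters for motifs was planned, and no promoter sequence was used here. Arrays of near-identical copies are reported as 1 signal or with a caution.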

Additional observations from a re-analysis of the deposited data

Results flagged for a closer look

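For the genes below, limma's product term of per3 class and genotype passed 0.05 after Benjamini-Hochberg adjustment over 22803 genes. Each term is the difference inside the mutant minus that inside the wild type on the log2 scale, and each rests on the single low mutant pool and the single high wild type pool, in classes set by a measured transcript, so a difference between genotypes and a deviation of 1 of these pools cannot be told apart. No term was called in any fit that left out 1 of wild type replicates 2 and 3 or 1 of mutant replicates 1 and 3.

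Among clock genes the term was 1.74 for cry1ba, 2.26 for cry1bb and -1.84 for nocta. cry1ba had 3026, 2717 and 1633 in high-per3 pools, against 2146, 3886 and 4299 in low-per3 pools, with wild type replicate 1 lowest. Among immediate early genes it was -2.81 for fosb, -2.53 for fosab and -2.22 for junbb. fosab had 507, 748 and 2475 in high-per3 pools, against 810.3, 547 and 577 in low-per3 pools, and wild type replicate 1 alone stood high. For the muscle atrophy ligases it was 1.84 for fbxo32 and 1.65 for trim63a, and fbxo32 had 1764, 1725 and 517 in high-per3 pools, against 1431, 1406 and 1647 in low-per3 pools, with wild type replicate 1 alone low. For genes of calcium uptake and vitamin D it was -3.25 for trpv6 and 2.77 for cyp24a1. cyp24a1 had 2402, 2954 and 233 in high-per3 pools, against 2659, 1953 and 1295 in low-per3 pools. For the cone genes grk7a and arr3b it was -1.68 and -1.87, and grk7a had 1195, 1555 and 2498 in high-per3 pools, against 1587, 828 and 987 in low-per3 pools. The glucocorticoid target fkbp5 had a term of -2.30 with 4232, 4955 and 2892 in high-per3 pools, against 7631, 757 and 1269.6 in low-per3 pools, where mutant replicate 2 stood highest. The collagen gene col1a1a had a term of -1.74 with 1314, 1653 and 19518 in high-per3 pools, against 4417, 17873 and 17054 in low-per3 pools.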

How the results depend on the processing

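The count of genes higher in high-per3 pools ranged from 883 to 1617 over 16 alternatives, within 1.5 times the reported 1197. The count lower (204) was 57 with a pseudocount of 5, 87 with a filter at 10, 428 with the replicate block and 294 to 755 when 1 library was left out. Genotype calls (1224 higher, 845 lower) were 274 and 214 with the replicate block, 526 and 497 with no class term, and 487 to 1556 and 307 to 847 when 1 library was left out. Replicate numbers gave no pairing: deviations of same-numbered pools correlated at 0.184, 0.184 and -0.394, and wild type replicate 1 was most like mutant replicate 3 (0.416). The 87 calls of the product term became 182 with edgeR, 182 with a filter at 10, 151 with a pseudocount of 5, 36 with a pseudocount of 0.5, 2 with summed transcripts and 0 with no filter or when 1 library was left out (0 to 0). It could not be fitted with the block or without wild type replicate 1 or mutant replicate 2. prss60.2 turned to 0.049 with the replicate block, and the cause was not tested. Of the other values for named genes under alternatives, 2306 stayed within 1 residual SD and 315 moved further, as did 425 and 55 list medians and 225 and 15 family medians, the last run after the data were seen. The median of all genes, -0.103 as reported, was -0.038 with edgeR and -0.036 with median-of-ratios size factors, so these shifts made up most of it. Depth limits genes with a mean under 20, where 7.63% were called higher and 2.73% lower.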
